A study of Mus musculus with 12 samples.

Results

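The question addressed here was whether both Foxo1 alleles of a lymphoma line stand in for each other: which transcripts were kept at their level as long as either allele was present and moved when both were lost, and which moved with the loss of a single allele. All 12 of the 12 arrays of the study enter, as a design of 2 allele states by 2. The arrays measured total RNA of BL#19, a murine Burkitt lymphoma (BL) line edited with CRISPR/Cas9, in 4 genotypes with 3 arrays each. The genotypes were wt+/mt+, with the wild-type allele and the T24P allele; wt-/mt+, with the wild-type allele knocked out and T24P left; wt+/mt-, with T24P knocked out and the wild-type allele left; and wt-/mt-, with both knocked out. All 4 derive from 1 line and no treatment is named. Whether the 3 arrays of a genotype are separate clones, cultures or repeats of 1 RNA is not given in the labels. The p-values therefore cover no more than the spread among arrays, which may be technical, and each genotype may be a single clone. A description field calls the samples germinal center B cells, while the fields on the source, line and cell type name the lymphoma.

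Foxo1 is a forkhead transcription factor that binds DNA in the nucleus and activates genes that slow growth, promote death or feed back on insulin and PI3K signalling. When PI3K is active, AKT phosphorylates Foxo1, 14-3-3 proteins bind it, and it leaves the nucleus, so its targets fall silent. T24P replaces a residue that AKT phosphorylates, where 14-3-3 proteins bind. In germinal center B cells Foxo1 is known for the dark zone programme, with Cxcr4 and Bach2 among the genes that depend on it.

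For each gene, the interaction was the effect of losing the mutant allele where the wild-type allele was gone minus its effect where the wild-type allele was kept, (wt-/mt- minus wt-/mt+) minus (wt+/mt- minus wt+/mt+), in log2 units. It is 0 where both single losses add up to the double loss, and below 0 where wt-/mt- lies under that sum. Calls were made at an adjusted p (Benjamini-Hochberg) under 0.05 in limma over all 11458 genes kept. A gene counted as sustained by either allele where the interaction was called below 0, wt-/mt- was called lower than each of the other 3 genotypes, and neither single loss was called. The mirror image counted as restrained by either allele. A strict form also asked for a double-loss change of at least 1 and for both single-loss 95% intervals to lie inside -1 to 1, because a single loss that misses a test has not been shown to leave a gene alone.

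Array medians lay between 6.08 and 6.25 (log2). Of the B cell transcripts, Ms4a1 (means 14.60 to 14.84), Cd79b (13.30 to 14.26), Cd22 (12.67 to 13.72) and Ebf1 (11.39 to 12.10) were bright in each genotype. Cd79a (7.85 to 8.32) and Pax5 (7.30 to 7.70) lay much lower. The T cell, myeloid and stromal transcripts Cd3g, Itgam and Col3a1 lay between 3.91 and 4.30. Other markers of those lists were nearer the array median or above it, with Cd4 at 6.77 to 6.93, Csf1r at 7.11 to 7.22 and Adgre1 at 6.79 to 7.17, and the NK marker Klrd1 stood at 8.32 in wt+/mt- against 6.67 to 7.24 in the other genotypes. The spread was unequal: the median SD over genes was 0.0952 in wt+/mt+, 0.111 with the mutant allele alone, 0.133 with the wild-type allele alone, and 0.261 in wt-/mt-. Replicates 1 and 2 of wt+/mt- had actin 3' to 5' ratios of 2.17 and 1.71 (log2), against 1.06 to 1.29 in the other 10 arrays. The spiked labelling transcripts lys, phe, dap and thr, which no cell makes, had interactions of their own of -0.72, -0.83, -1.09 and -1.16 and were highest in wt+/mt-, while the hybridisation spikes bioB, bioC, bioD and cre lay between -0.20 and -0.01. Their part in the results was not tested.

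The interaction was called for 360 genes (3.14% of those tested; 2104 at an unadjusted p under 0.05), 264 below 0 (2.3%) and 96 above 0 (0.838%). Of these, 240 (2.09%) were sustained by either allele and 79 (0.689%) restrained by either allele, and 96 (0.838%) and 22 (0.192%) met the strict form. The class rule also rested on wt-/mt- being lower than wt+/mt- (942 genes, 8.22%) and than wt-/mt+ (1269 genes, 11.1%), or higher (728 genes, 6.35%, and 1117 genes, 9.75%). Loss of both alleles called 2535 genes (22.1%), so most genes that moved with the double loss had no called interaction. The single losses called few genes in the same fit: the wild-type allele 0 (0%; 412 at an unadjusted p under 0.05, and 19 with 1 weight per genotype) and the mutant allele 21 (0.183%; 8 lower, 0.0698%, and 13 higher, 0.113%; 1704 at an unadjusted p under 0.05). Genes with both a called interaction and a called single loss numbered 6. The count of interactions rested on which arrays were in the fit. Without wt+/mt- replicates 1 and 2 it was 56, and after adding the actin ratio as a covariate 166. Omitting any 1 of the wt-/mt- arrays gave between 772 and 994, and omitting any 1 of the other arrays between 118 and 327, the count of 327 coming without wt+/mt- replicate 3. All 360 kept their sign in each of the 23 alternatives in which they were tested (352 of them under a filter at the 60th percentile of brightness). They were picked by their call in the same arrays, so the kept signs add no support.

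**Figure D1:**
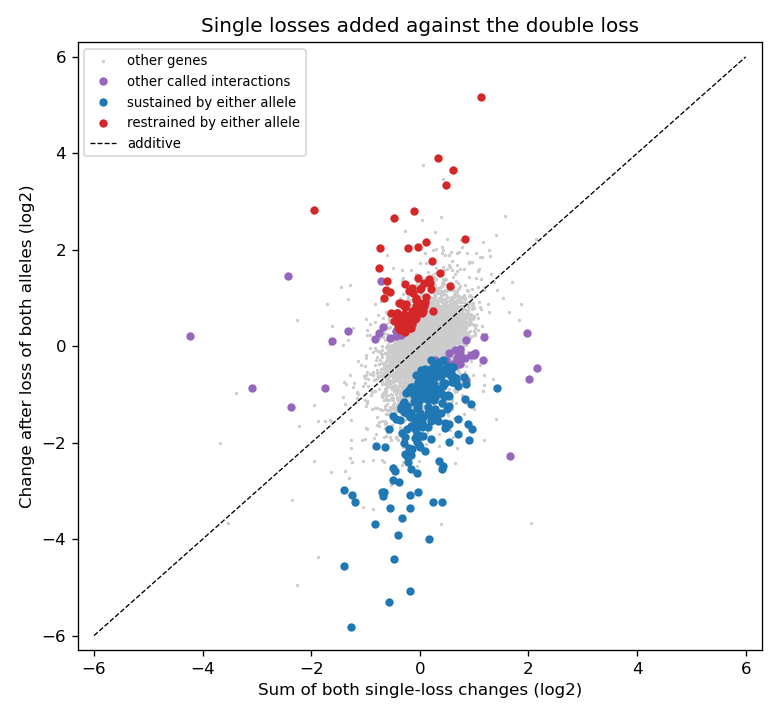
Change after loss of both alleles (vertical axis, log2) against the sum of both single-loss changes (horizontal axis, log2) for 11458 genes, with the additive line dashed. The 240 genes sustained by either allele (blue) lie below the line and the 79 restrained genes (red) above it, most with a single-loss sum near 0.

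Foxo1 itself was among the strictly sustained transcripts. It read 11.56, 11.63 and 11.72 in wt+/mt+, 11.57, 11.16 and 11.64 with the mutant allele alone, 12.10, 11.92 and 11.59 with the wild-type allele alone, and 10.23, 9.39 and 10.34 in wt-/mt-. All 3 wt-/mt- arrays were below the other 9, and the 3 genotypes with at least 1 allele overlapped. The interaction was -1.71 (SE 0.33, limma adjusted p = 0.0226), and single-loss 95% intervals ran from -0.69 to 0.34 for the wild-type and from -0.28 to 0.75 for the mutant allele. The call ended without any wt+/mt+ array, replicates 1 or 3 of wt-/mt+ or, in wt+/mt-, replicates 1 or 2, at values within -1.88 to -1.41, and with each array centred per chromosome (-1.49). Where the edits lie in the gene is not stated in the labels, and these levels are a partial check on the double-knockout label and none on the single ones.

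**Figure D2:**
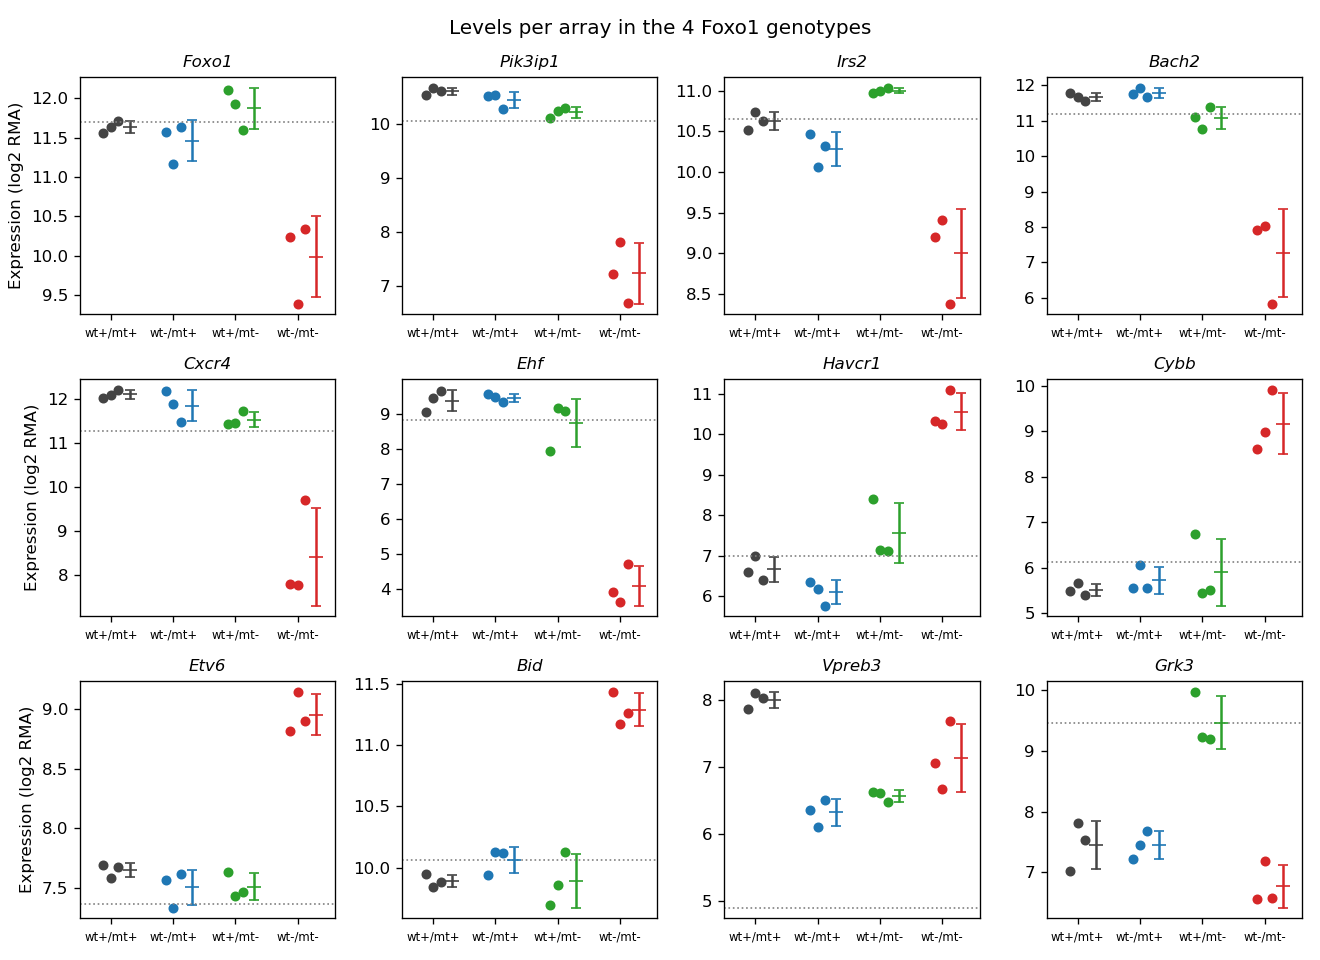
Expression (log2 RMA) of 12 genes in each array (points) of the 4 genotypes, with the mean and SD over 3 arrays beside them; the dotted line is the wt-/mt- level expected if both single losses added up. Foxo1, Pik3ip1, Irs2, Bach2, Cxcr4 and Ehf are lowest in wt-/mt-, Havcr1, Cybb, Etv6 and Bid rise there, Vpreb3 falls in both single-allele genotypes and Grk3 is high in wt+/mt-.

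Among 37 kept members of a list of canonical FOXO targets, 5 had an interaction called below 0 and 0 above 0 (13.5% of the list, against 2.3% of all genes below 0 and 0.838% above 0), all 5 in the sustained class, and the median interaction was -0.51 against -0.05 over all genes. Loss of both alleles lowered 18 of the 37 and raised 0, against 9.94% lowered and 12.2% raised over all genes, and neither single loss was called for any of them in the fit of all 12 arrays. Of 12 kept Foxo1 targets of lymphocytes, 3 (Cxcr4, Bach2 and Pik3ip1) were called below 0 (25%, against 2.3% of all genes) and 0 above 0, with a median of -0.71. Without wt+/mt- replicates 1 and 2 each list kept 1 call, at medians of -0.49 and -0.56. The calls of Foxo1 (-1.43), Irs2 (-1.69), Bmf (-2.25), Bach2 (-4.22) and Cxcr4 (-3.06) were among those that ended there, and those of Foxo1, Irs2, Bmf and Cxcr4 ended with the actin covariate.

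Pik3ip1, which encodes a membrane protein that restrains PI3K, was lowest in wt-/mt-. It read 10.55, 10.67 and 10.61 in wt+/mt+, 10.52, 10.54 and 10.28 with the mutant allele alone, 10.11, 10.24 and 10.31 with the wild-type allele alone, and 7.24, 7.82 and 6.69 in wt-/mt-. The lowest array with an allele was thus 10.11 and the highest without one 7.82. The interaction was -2.81 (SE 0.31, limma adjusted p = 0.00172), it was called in all 23 alternatives, and its second bright probe set gave -2.29. In the fit of the 9 arrays with an allele, described below, it also fell by 0.39 with the mutant loss (limma adjusted p = 0.0356). Irs2, the adaptor that couples the insulin receptor to PI3K, read 10.52, 10.74 and 10.62 in wt+/mt+, 10.47, 10.07 and 10.32 with the mutant allele alone, 10.97, 10.99 and 11.03 with the wild-type allele alone, and 9.21, 9.41 and 8.38 in wt-/mt-. Its interaction was -1.66 (SE 0.31, limma adjusted p = 0.019), a call that ended without wt+/mt+ replicates 1 or 3, replicates 1 or 3 of wt-/mt+ or, in wt+/mt-, replicate 2 (within -1.86 to -1.35). These were the called members (2 of 26 kept, 7.69%, against 2.3% of all genes below 0) of a list on PI3K and mTORC1, whose median was -0.22.

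The other 3 canonical targets act in cell death and stress. Trp53inp1, a p53-induced regulator of autophagy and death, read 12.48, 12.42 and 12.46 in wt+/mt+, 12.67, 12.49 and 12.34 with the mutant allele alone, 11.88, 11.81 and 12.03 with the wild-type allele alone, and 9.92, 10.12 and 8.98 in wt-/mt-. Bmf, a BH3-only activator of apoptosis, read 11.01, 11.17 and 11.03, then 10.89, 10.91 and 10.63, then 10.81, 10.63 and 10.48, and in wt-/mt- 7.63, 8.93 and 7.35. Both were lowest in all 3 wt-/mt- arrays, with no overlap with the other 9. Their interactions were -2.28 (SE 0.33, limma adjusted p = 0.00532) and -2.41 (SE 0.44, adjusted p = 0.0183), but their bright probe sets spanned -2.28 to -0.45 and -2.41 to -0.26. Bmf lost its call without wt+/mt+ replicates 1 or 3, replicates 1 or 2 of wt-/mt+ or, in wt+/mt-, replicate 2 (within -2.89 to -2.10), and Trp53inp1 in 1 of the 23 alternatives, without wt+/mt- replicates 1 and 2. The fifth, Bnip3, a mitophagy receptor outside the rule for named genes and named to complete the count, had -0.77. Bcl2l11, the BH3-only protein BIM and a textbook FOXO target, did not pass (-1.05, SE 0.35, limma adjusted p = 0.137), nor did Sesn1 (-1.25, adjusted p = 0.256), Klf2 (-0.58, adjusted p = 0.331), Cdkn1b (1.41, adjusted p = 0.26), Foxo3 (-0.56, adjusted p = 0.579) or Foxo4 (0.20, adjusted p = 0.711).

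Bach2, a repressor that holds back plasma cell differentiation, read 11.79, 11.66 and 11.57 in wt+/mt+, 11.74, 11.93 and 11.67 with the mutant allele alone, 11.12, 10.76 and 11.38 with the wild-type allele alone, and 7.92, 8.03 and 5.83 in wt-/mt-. It fell in wt-/mt- in all 3 arrays, with an interaction of -3.93 (SE 0.64, limma adjusted p = 0.0102), while the 3 bright probe sets spanned -3.93 to -0.90. Cxcr4, the chemokine receptor that places B cells in the dark zone, read 12.00, 12.08 and 12.20, then 12.17, 11.88 and 11.47, then 11.41, 11.44 and 11.72, and in wt-/mt- 7.78, 7.75 and 9.69. Its interaction was -2.86 (SE 0.59, limma adjusted p = 0.0275), and the call ended without any 1 of the wt+/mt+ or wt+/mt- arrays or wt-/mt+ replicates 1 or 2 (within -3.50 to -2.53). Other genes of germinal center and plasma cell fate did not pass: Bcl6 had -0.77 (SE 0.28, adjusted p = 0.177), Btla -1.12 (adjusted p = 0.395), S1pr1 -1.14 (adjusted p = 0.0989) and Irf4 0.28 (adjusted p = 0.821). On a dark zone list 2 of 15 kept members were called (13.3%, against 3.14% of all genes), Cxcr4 below 0 and Ung, the uracil glycosylase that processes deaminated bases, above 0 (0.84, SE 0.17, limma adjusted p = 0.0246; not called in 9 of 23 alternatives).

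**Figure D3:**
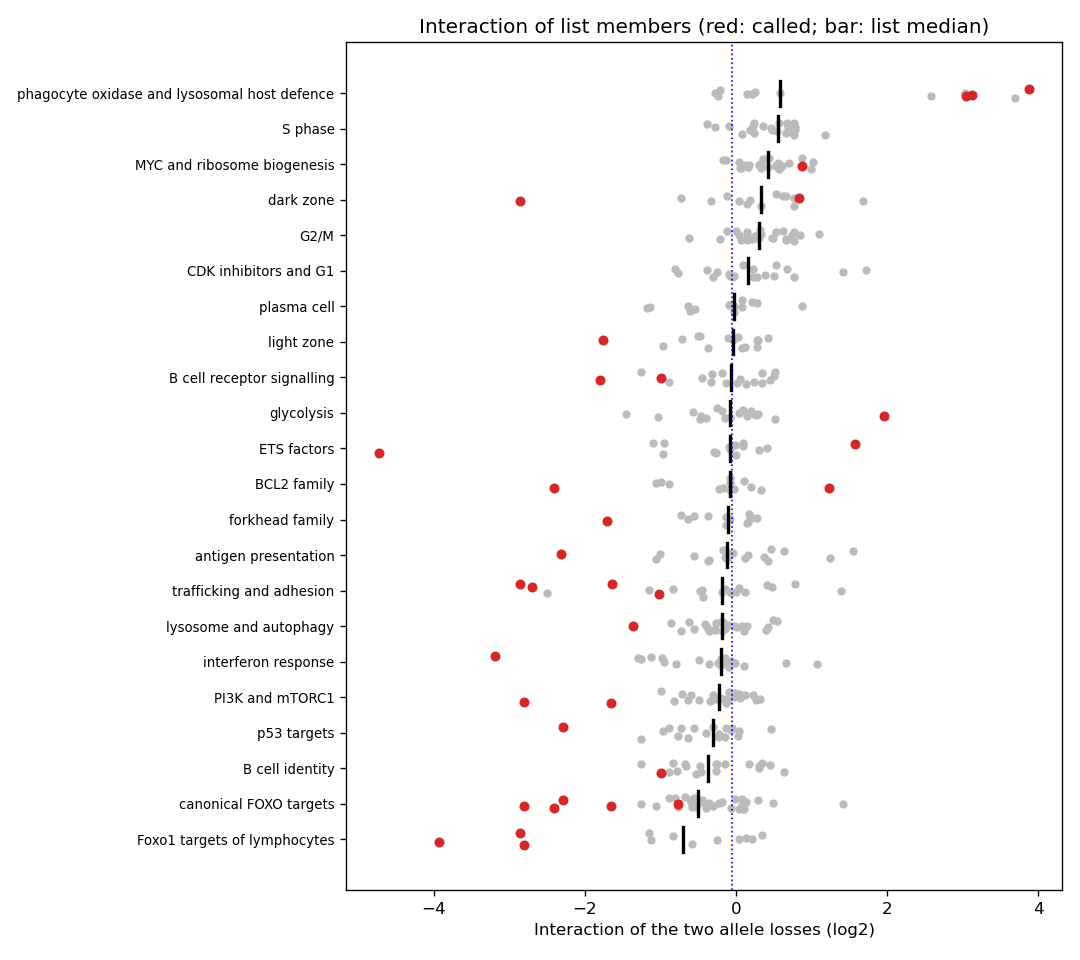
Interaction (log2) of each kept member (points, red where called) of 22 gene lists, with the list median as a black bar and the median over all genes (-0.05) dotted. Lists of Foxo1 and FOXO targets sit lowest, at medians of -0.71 and -0.51, and the phagocyte list highest, at 0.59, with 3 called members above 3.

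The deepest interactions below 0 belonged to genes of varied function. Zfyve28, a FYVE-domain regulator of EGF receptor traffic, read 10.89, 10.92 and 10.73 in wt+/mt+, 10.90, 10.98 and 10.84 with the mutant allele alone, 10.31, 10.55 and 10.92 with the wild-type allele alone, and 5.29, 4.65 and 7.35 in wt-/mt- (interaction -4.89, SE 0.72, limma adjusted p = 0.00564). Ehf, an ETS factor of epithelia, read 9.05, 9.45 and 9.64, then 9.56, 9.48 and 9.34, then 7.94, 9.16 and 9.08, and in wt-/mt- 3.91, 3.61 and 4.71 (interaction -4.73, SE 0.48, adjusted p = 0.00172; other bright probe sets to -2.43). All 3 wt-/mt- values of Ehf lay under the array median, so the size of its fall is limited by the floor of the array. Of the 240 sustained genes, 24 had a wt-/mt- mean below the array median. Lct, the lactase gene, had -4.18 (SE 0.47, adjusted p = 0.00172), and Lnx1, a ubiquitin ligase of Numb, -3.64 (SE 0.40, adjusted p = 0.00172). Ppp3cc, the gamma catalytic subunit of calcineurin, read 10.18, 10.47 and 10.62, then 10.91, 10.48 and 10.68, then 10.13, 10.32 and 10.73, and in wt-/mt- 6.45, 7.06 and 8.10 (interaction -3.46, SE 0.47, adjusted p = 0.00406). Lct, Lnx1 and Ppp3cc were called in all 23 alternatives. B3gnt5, a lactosylceramide glycosyltransferase, had -3.23 (SE 0.50, adjusted p = 0.00804). The calls of Zfyve28, B3gnt5 and Bach2 ended without wt+/mt- replicates 1 and 2, at -5.21, -3.17 and -4.22, and that of Ehf on a linear scale.

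Csf1, the macrophage growth factor, stood lower with the wild-type allele alone than in wt+/mt+, as did Bach2 and Dnaic2. It read 12.05, 11.76 and 11.67 in wt+/mt+, 11.98, 11.37 and 11.46 with the mutant allele alone, 10.19, 10.44 and 11.33 with the wild-type allele alone, and 7.03, 7.81 and 6.99 in wt-/mt-. The mutant-loss interval ran from -1.84 to -0.50 (95%, unadjusted) with no call over all genes, the interaction was -3.16 (SE 0.43, limma adjusted p = 0.00406), and 4 bright probe sets spanned -3.16 to -0.23. Dnaic2 (-4.55, adjusted p = 0.041; mutant loss -1.40, limma adjusted p = 0.0158 in the 9-array fit), Gm8369 (-3.51, adjusted p = 0.0286) and Mndal (-3.18, adjusted p = 0.0229) completed the 12 deepest together with Cdyl2, described below, and lost their calls in 13, 12 and 8 of 23 alternatives.

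Other lists held few calls, against 2.3% of all genes called below 0. Called below 0 were 1 of 19 kept genes of antigen presentation (5.26%), 1 of 20 of B cell identity (5%) and 1 of 15 of the light zone (6.67%). Lysosome and autophagy had 1 of 25 (4%) and B cell receptor signalling 2 of 18 (11.1%). Trafficking and adhesion had 4 of 21 (19%), with Grk3, described below. These lists had 0 calls above 0, and a count of 1 describes that gene and not its list. H2-Ob, a chain of the MHC class II editor H2-O, read 11.32, 11.35 and 11.30 in wt+/mt+, 11.23, 11.20 and 11.17 with the mutant allele alone, 10.56, 10.70 and 10.97 with the wild-type allele alone, and 8.83, 8.69 and 7.40 in wt-/mt- (interaction -2.32, SE 0.41, limma adjusted p = 0.0153; the call ended without wt+/mt+ replicates 1 or 3, within -2.58 to -1.86). Cd72, an inhibitory B cell coreceptor, had -0.995 (SE 0.19, adjusted p = 0.0216), Traf1, an adaptor of TNF receptors, -1.75 (SE 0.38, adjusted p = 0.0354), Vav3, a signalling protein downstream of the B cell receptor, -1.80 (SE 0.42, adjusted p = 0.0475), and Rgs2, which shuts off G protein signals, -1.64 (SE 0.39, adjusted p = 0.0499). These 4 lost their calls in 7, 11, 15 and 16 of 23 alternatives, Rgs2 and Vav3 also when each array was centred on its median. Atp6v1h, a subunit of the lysosomal proton pump, was tight: 11.60, 11.59 and 11.60 in wt+/mt+, 11.87, 11.78 and 11.88 with the mutant allele alone, 11.98, 12.00 and 12.05 with the wild-type allele alone, and 10.76, 10.98 and 10.97 in wt-/mt-. Its levels stood higher with 1 allele than with 2, and lower with none (interaction -1.36, SE 0.13, limma adjusted p = 0.0013, called in all 23 alternatives), although its other bright probe set gave -0.52.

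A set of 34 genes was called with the same sign in the full fit and in all 23 alternatives, 27 below 0 and 7 above 0. Hvcn1, the voltage-gated proton channel of B cells, read 10.55, 10.53 and 10.56 in wt+/mt+, 11.19, 11.05 and 11.02 with the mutant allele alone, 10.68, 10.97 and 11.06 with the wild-type allele alone, and 8.92, 8.60 and 8.28 in wt-/mt- (interaction -2.84, SE 0.22, limma adjusted p = 0.00055). As with Atp6v1h, either single-allele genotype stood at or above wt+/mt+. Drosha, the nuclease that cuts primary microRNAs, read 12.77, 12.78 and 12.80, then 12.77, 12.87 and 12.87, then 12.67, 12.43 and 12.48, and in wt-/mt- 11.37, 11.52 and 11.36 (interaction -1.17, SE 0.13, adjusted p = 0.00172). Others below 0 were Gimap8, a lymphocyte GTPase (-2.92), Akap12, a scaffold for protein kinase A (-2.53), Mgmt, which repairs alkylated guanine (-2.10), Atg4a, an autophagy protease (-1.80), Zbtb18, a zinc finger repressor (-1.62), Wipf1, a partner of the Wiskott-Aldrich protein (-1.40), Abcd3, a peroxisomal transporter (-1.26), and Pim1, a serine/threonine kinase that promotes survival (-0.96). The 7 above 0 were Havcr1, Rassf4, Gsn, Timd2, Hk1, Etv6 and Prpf3. These genes were picked by their stability, so no test over them as a group is given, and those not reached by the rule for named genes were named after their values were seen.

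Promoters were searched for a motif because Foxo1 acts by binding DNA, and those of 3 strictly sustained genes are shown. Pim1 and Hbp1 were picked from the strictly sustained genes whose promoter held a match, and Pik3ip1 was added as a canonical target. The matches among the promoters shown are therefore no result. The motif searched was GTAAACA, the forkhead core used by FOXO factors, or TGTTTAC on the other strand, in the 250 bases before the transcription start (RefSeq, GRCm38.p6). Capitals mark a match. Pim1 (chr17:29492835-29493084, plus strand, match at position -70 from the start) and Hbp1, an HMG-box repressor of cell cycle genes (chr12:31950246-31950495, minus strand, match at position -149), held 1 match each, and Pik3ip1 (chr11:3330481-3330730, plus strand), the canonical target with the lowest interaction, held 0.
Pim1: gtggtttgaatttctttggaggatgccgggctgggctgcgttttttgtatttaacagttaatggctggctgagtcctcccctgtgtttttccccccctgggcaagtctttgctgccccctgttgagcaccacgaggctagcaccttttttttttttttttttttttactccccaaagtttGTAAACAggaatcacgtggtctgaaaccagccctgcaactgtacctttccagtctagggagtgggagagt
Hbp1: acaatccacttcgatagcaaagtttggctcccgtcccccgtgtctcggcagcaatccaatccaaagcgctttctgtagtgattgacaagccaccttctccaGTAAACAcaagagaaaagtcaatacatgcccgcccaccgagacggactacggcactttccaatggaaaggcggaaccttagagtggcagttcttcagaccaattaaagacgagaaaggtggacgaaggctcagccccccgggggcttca
Pik3ip1: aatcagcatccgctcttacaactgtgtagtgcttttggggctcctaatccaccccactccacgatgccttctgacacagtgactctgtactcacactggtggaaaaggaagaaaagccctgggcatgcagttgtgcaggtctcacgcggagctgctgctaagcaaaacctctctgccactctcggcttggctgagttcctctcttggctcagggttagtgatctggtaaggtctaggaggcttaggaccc
A match was found in 6 of 273 promoters of sustained genes (2.2%), 4 of 122 of strictly sustained genes (3.28%), 2 of 89 of restrained genes (2.25%) and 2 of 27 of strictly restrained genes (7.41%), against 2.28% of promoters of all genes kept and 3.17% of all 32851 promoters in the table. The shares rest on 2 to 6 promoters each and describe these letters in this window only. Pim1 read 10.35, 10.31 and 10.32 in wt+/mt+, 10.32, 10.35 and 10.26 with the mutant allele alone, 9.85, 10.02 and 10.10 with the wild-type allele alone, and 9.16, 9.05 and 8.86 in wt-/mt- (interaction -0.96, SE 0.15, limma adjusted p = 0.00697). Hbp1, named for its match, had -1.23 (SE 0.28, adjusted p = 0.0413).

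Genes restrained by either allele had a median interaction of 1.02 (range 0.47 to 4.79) and a median double-loss change of 0.85. For 6 of the 79 the mean over the 9 arrays with an allele lay below the array median. Havcr1, the phosphatidylserine receptor TIM-1, read 6.59, 6.99 and 6.39 in wt+/mt+, 6.35, 6.16 and 5.76 with the mutant allele alone, 8.41, 7.13 and 7.11 with the wild-type allele alone, and 10.33, 10.25 and 11.10 in wt-/mt-. It rose in wt-/mt- above all other arrays (interaction 3.58, SE 0.49, limma adjusted p = 0.00406), with a mutant-loss interval from 0.13 to 1.66. Its relative Timd2, the ferritin receptor TIM-2, read between 5.85 and 6.43 in the 9 arrays with an allele and 8.39, 8.11 and 8.83 in wt-/mt- (interaction 2.26, SE 0.26, adjusted p = 0.00172). Etv6, an ETS repressor, read 7.69, 7.59 and 7.67, then 7.56, 7.34 and 7.62, then 7.64, 7.43 and 7.47, and in wt-/mt- 8.81, 9.14 and 8.90 (interaction 1.58, SE 0.16, adjusted p = 0.00172). Both ETS calls, Ehf below and Etv6 above 0, were the only 2 among 15 kept ETS factors (13.3%, against 3.14% of all genes). Hk1, the first enzyme of glycolysis in most tissues, had 1.96 (SE 0.26, adjusted p = 0.00402), Gsn, the actin-severing gelsolin, 2.37 (SE 0.34, adjusted p = 0.00468), and Rassf4, a Ras-association protein, 2.77 (SE 0.31, adjusted p = 0.00172). Bid, the BH3-only protein that links death receptors to mitochondria, read 9.95, 9.84 and 9.88, then 9.94, 10.13 and 10.12, then 9.69, 9.86 and 10.13, and in wt-/mt- 11.44, 11.17 and 11.26 (interaction 1.23, SE 0.17, adjusted p = 0.00469; not called without wt+/mt- replicates 1 and 2, 0.99). Bid and Bmf were thus the called pair among 14 kept BCL2 family genes (14.3%, against 3.14% of all genes), in opposite directions, of which 1 was left with the actin covariate and 0 without wt+/mt- replicates 1 and 2. Mcl1, their anti-apoptotic relative, did not pass (-0.99, limma adjusted p = 0.244). Its other bright probe sets gave lower values, -1.80 to -1.68, and none of them was called in a fit of all probe sets.

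On a list of phagocyte oxidase and host defence genes, 3 of 13 kept members were called above 0 (Cybb, Ncf4 and Pla2g7, 23.1%, against 0.838% of all genes) and 0 below 0, with a median of 0.59. Cybb exceeded the array median only in the wt-/mt- arrays and wt+/mt- replicate 1, so it passed the brightness filter through its rise. Dim members among the 15 measured were left out of the 13, so the share depends in part on the filter. With the actin covariate, and without wt+/mt- replicates 1 and 2, 1 call was left. Cybb, the membrane-bound electron carrier of the phagocyte oxidase, read 5.48, 5.66 and 5.40 in wt+/mt+, 5.55, 6.07 and 5.57 with the mutant allele alone, 6.75, 5.46 and 5.51 with the wild-type allele alone, and 8.61, 8.99 and 9.91 in wt-/mt- (interaction 3.05, SE 0.52, limma adjusted p = 0.0127; not called on a linear scale). Ncf4, a cytosolic subunit of the same oxidase, read 7.70, 7.51 and 7.45, then 7.52, 7.60 and 7.34, then 7.39, 7.12 and 6.93, and in wt-/mt- 11.31, 8.72 and 10.60 (interaction 3.13, SE 0.68, adjusted p = 0.0355; the call ended without any 1 of the 9 other arrays, within 2.58 to 3.88). Mpeg1, the macrophage perforin, did not pass (3.70, SE 0.91, adjusted p = 0.0551), with 9.04, 10.37 and 12.56 in wt-/mt- against 6.67 to 7.41 elsewhere. Of 6 measured myeloid markers 3 were kept, and their mean level over the 6 ran from 5.83 to 6.00 in wt+/mt+, 5.73 to 5.95 with the mutant allele alone, 6.07 to 6.27 with the wild-type allele alone and 6.13 to 6.41 in wt-/mt-. Cd68 stood at 6.11, 5.73, 7.18 and 8.04 in the same order, while Itgam and Lyz2 lay between 4.18 and 5.57 in each genotype. In bulk RNA, more cells of a type and more RNA per cell cannot be told apart.

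The other genes with the highest interactions split by whether every wt-/mt- array rose above those of wt+/mt+. Anxa10, an annexin, read 6.98, 7.46 and 7.50 in wt+/mt+, 7.38, 7.17 and 6.29 with the mutant allele alone, 8.39, 8.97 and 9.05 with the wild-type allele alone, and 14.17, 12.12 and 11.18 in wt-/mt-. It thus stood above wt+/mt+ already after the mutant loss (1.49, limma adjusted p = 0.0157 in the 9-array fit). Its interaction was 4.05 (SE 0.84, limma adjusted p = 0.0286). The call ended without any 1 of the wt+/mt+ or wt-/mt+ arrays or wt+/mt- replicates 1 or 2 (within 3.21 to 4.71). Klhl6, a germinal center adaptor of the Cullin 3 ligase, had 2.86 (SE 0.65, limma adjusted p = 0.04), Tnni2, a fast muscle troponin, 2.90 (SE 0.57, adjusted p = 0.0229), and Mef2b, a germinal center factor that helps drive Bcl6, 2.05 (SE 0.43, adjusted p = 0.0303). Their calls ended in 13, 10 and 11 of 23 alternatives. Klhl6 too read higher with the wild-type allele alone (9.17 to 10.00) than in wt+/mt+ (8.57 to 8.85). Clec2i, a C-type lectin ligand of an NK receptor, read 5.62, 6.12 and 6.14 in wt+/mt+, 5.12, 4.86 and 4.87 with the mutant allele alone, 4.86, 5.01 and 5.18 with the wild-type allele alone, and 9.57, 8.50 and 8.32 in wt-/mt-. Both single-allele genotypes thus stood below wt+/mt+ with no overlap, and wt-/mt- above it (interaction 4.79, SE 0.39, limma adjusted p = 0.00055). However, all 9 arrays with an allele read Clec2i below their median, so it passed the brightness filter only through wt-/mt-. Differences among those 9 are between dim values, and the call ended on a linear scale.

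Sash3 and Pla2g7 were low in the single-allele genotypes, so that adding both single losses gave 5.29 and 4.38, below every array. Sash3, a lymphocyte adaptor, read 9.47, 9.70 and 9.42 in wt+/mt+, 6.70, 7.82 and 6.55 with the mutant allele alone, 9.50, 7.16 and 6.74 with the wild-type allele alone, and 10.62, 9.23 and 9.37 in wt-/mt-. Replicate 1 of wt+/mt- sat with wt+/mt+, unlike the other two, and wt-/mt- overlapped wt+/mt+ (interaction 4.45, SE 0.90, limma adjusted p = 0.0252; not called without any wt+/mt+ array, replicates 1 or 3 of wt-/mt+ or, in wt+/mt-, replicate 2, within 3.92 to 5.30). Pla2g7, a secreted phospholipase that breaks down platelet-activating factor, read 6.71, 6.81 and 6.93, then 4.96, 5.24 and 5.23, then 6.00, 6.00 and 6.17, and in wt-/mt- 6.69, 9.38 and 8.74 (interaction 3.89, SE 0.71, adjusted p = 0.0171; not called without wt+/mt+ replicates 1 or 3, replicate 1 of wt-/mt+ or, in wt+/mt-, replicate 2, within 3.33 to 4.68).

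The 41 called interactions outside both classes had other shapes. Comparing each genotype's mean with the median of the other 3, the genotype farthest from the rest was wt-/mt- for 20 of them, wt+/mt- for 14, wt+/mt+ for 4 and wt-/mt+ for 3. It was wt-/mt- for all 79 restrained and 239 of 240 sustained genes, but the class rule largely fixes this in advance, so it is no separate result. Vpreb3, a component of the pre-B cell receptor pathway, was highest with both alleles, at 7.86, 8.10 and 8.03 in wt+/mt+, 6.36, 6.10 and 6.51 with the mutant allele alone, 6.63, 6.62 and 6.47 with the wild-type allele alone, and 7.06, 6.67 and 7.68 in wt-/mt-. Loss of the mutant allele lowered it with the wild-type allele present (-1.43, SE 0.21, limma adjusted p = 0.0393) and raised it without (0.81, SE 0.21, adjusted p = 0.0215). Its interaction was 2.24 (SE 0.30, adjusted p = 0.00399), and without wt+/mt- replicates 1 and 2 it was not called (2.34). Loss of the wild-type allele gave -1.67 (adjusted p = 0.083). The call of the mutant loss ended in 13 of 23 alternatives, among them the actin covariate and the omission of any 1 array that carries an allele (within -1.49 to -1.37). Snhg16, a long noncoding RNA that hosts small nucleolar RNAs, read 10.44, 10.45 and 10.55, then 9.47, 9.61 and 9.34, then 8.82, 9.28 and 9.22, and in wt-/mt- 9.14, 9.62 and 8.88. It stood as low with 1 allele as with none, where adding both single losses would have put it at 8.11 (interaction 1.10, SE 0.26, adjusted p = 0.0445; not called in 14 of 23 alternatives). Its other bright probe set had an interaction of 0.27 and a double-loss change of 0.255, against -1.27 here.

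Grk3, Mctp1 and Cdyl2 were high with the wild-type allele alone. Grk3, a kinase that desensitises Cxcr4 and other receptors, read 7.02, 7.81 and 7.53 in wt+/mt+, 7.21, 7.45 and 7.68 with the mutant allele alone, 9.97, 9.23 and 9.20 with the wild-type allele alone, and 6.56, 7.18 and 6.57 in wt-/mt- (loss of the mutant allele 2.02, SE 0.26, limma adjusted p = 0.0393; interaction -2.70, SE 0.37, adjusted p = 0.00424). Mctp1, a calcium-binding membrane protein, read 5.54 to 5.91 in the 6 arrays with the mutant allele, 7.76, 7.77 and 7.27 in wt+/mt-, and 5.88, 6.62 and 5.35 in wt-/mt- (interaction -1.70, SE 0.37, adjusted p = 0.0356). Mctp1 exceeded the array median only in the wt+/mt- arrays and wt-/mt- replicate 2, so it passed the brightness filter only through wt+/mt-. Its differences among the other genotypes are mostly between dim values. Cdyl2, a chromodomain protein, read 6.55, 7.48 and 7.46, then 5.43, 4.80 and 7.76, then 10.49, 10.43 and 9.06, and in wt-/mt- 4.42, 4.98 and 5.24 (interaction -3.95, SE 0.93, adjusted p = 0.0471, not called in 13 of 23 alternatives). For these genes the third wt+/mt- array, whose actin ratio was not raised, was the lowest of its group but above every array of the other genotypes. Without wt+/mt- replicates 1 and 2 the interactions of Grk3 (-2.43) and Mctp1 (-1.37) were not called, and that of Mctp1 ended without any 1 of the wt+/mt+ or wt-/mt+ arrays or wt+/mt- replicates 1 or 2.

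Whether the mutant and the wild-type allele, each alone, gave the same level was compared directly. The single-allele genotypes differed for 10 genes of 11458 (0.0873%; 4 higher with the mutant allele, 0.0349%, and 6 with the wild-type allele, 0.0524%; 1881 at an unadjusted p under 0.05, limma), 5 of the 10 among the 360 called interactions. Mgmt (1.38, adjusted p = 0.0393), Tmem243 (1.27, adjusted p = 0.0444) and Cdc14a (0.63, adjusted p = 0.0403), all sustained, were higher with the mutant allele alone, and Grk3 and Mctp1 with the wild-type allele alone; Tmem243 and Cdc14a were named to complete the count. Of these, Mctp1 passed the brightness filter only through its level with the wild-type allele alone. The count of 5 was 0 with the actin covariate and 55 with 1 weight per genotype. Over the 264 genes called below 0 the median difference, mutant alone minus wild-type alone, was 0.11, and over the 96 above 0 it was -0.01, against 0.00 over all genes. A missed call does not show equal levels: the median SE of such a difference was 0.15.

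The few single-loss calls depended on the pooled spread, which the wt-/mt- arrays widen. In a fit of the other 9 arrays, added after the data were seen, the wild-type loss called 6 genes (0.0524%; 1192 at an unadjusted p under 0.05), all lower: Pla2g7, Sh3bp1, Slc30a4, Snhg16, Spats2 and Vpreb3. In that fit the mutant loss called 962 (8.4%), 678 higher and 284 lower. Without wt+/mt- replicates 1 and 2 the latter count was 94 (61 higher, 33 lower), and with the actin ratio as a covariate 353. Of the 240 sustained genes 31 had a called mutant loss there, among them Bach2 (-0.59), Bmf (-0.43), Trp53inp1 (-0.55), H2-Ob (-0.58) and Csf1 (-1.17), and, with the opposite sign, Atp6v1h (0.42), and of the strictly sustained 8 of 96. The wild-type loss was called for 0 of the 240 and 0 of the 79, while the class rule itself allows no single-loss call in the fit of all 12 arrays.

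Some genes followed the mutant allele with no called interaction, which does not show that the wild-type allele left the response alone. Of the 21 genes called for the mutant loss in the full fit, 15 had no called interaction (5 lower, 10 higher). Ugcg, the glucosylceramide synthase, read 9.04, 8.74 and 8.69 in wt+/mt+, 8.64, 8.79 and 8.76 with the mutant allele alone, 7.81, 7.86 and 8.07 with the wild-type allele alone, and 7.63, 7.56 and 7.95 in wt-/mt-. The 6 arrays without the mutant allele all lay below the 6 with it (mutant loss -0.91, interaction -0.11, 95% interval -0.53 to 0.31). Neo1, the netrin receptor neogenin, showed the same split, with 7.42 to 8.48 in the arrays with the mutant allele and 6.14 to 6.58 in those without (mutant loss -1.41, interaction 0.18, interval -0.51 to 0.88). Its other 2 bright probe sets changed by 0.35 and 0.48 after loss of both alleles, against -1.56 for the one shown, and with the mean of all its probe sets the mutant loss was -0.084. Stap2, a signalling adaptor (-1.46), and Pik3r6, a regulatory subunit of PI3K gamma (-0.97), also fell, with interaction intervals from -0.05 to 1.19 and -0.02 to 0.83. Ckm, muscle creatine kinase, rose, reading 6.41 to 6.63 in the arrays with the mutant allele and 7.00 to 7.58 in those without (mutant loss 0.89, interaction -0.10, interval -0.52 to 0.33). Smox, spermine oxidase (0.79), 1700003E16Rik (0.87) and 4930447F24Rik (0.87) rose likewise. The mutant-loss calls of these 8 genes ended in 11 to 16 of their alternatives, among them the mean of all probe sets of a gene and the fit without wt+/mt- replicates 1 and 2. Stap2 and Ckm each rested on 1 bright probe set. After loss of both alleles the other one changed by -0.029 for Stap2, against -1.65 for the one shown. For Ckm it changed by 0.15, against 0.85. The other bright probe sets of Ugcg changed by -1.16 and -0.25, against -1.11. The labelling spikes, higher in wt+/mt- and wt-/mt- than in the mt+ genotypes by 0.74 to 1.17, moved the same way as Ckm and Smox. The hybridisation spikes bioC, bioD and cre differed there by -0.64, -0.67 and -0.23, the same way as Ugcg, Neo1, Stap2 and Pik3r6, while bioB differed by 0.007. The part of either set of spikes was not tested.

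Called interactions on lists of proliferation genes were near the 3.14% of all genes. Of 27 kept G2/M genes 0 had a called interaction in either direction, and loss of both alleles raised 19 and lowered 0, against 12.2% and 9.94% of all genes. Their median change was 0.55 after loss of the wild-type allele with the mutant present, -0.06 after loss of the mutant allele with the wild-type present, and 0.82 after loss of both. Single-loss calls numbered 0, against 0% of all genes for the wild-type and 0.183% for the mutant allele. S phase genes (24 kept, 0 called interactions, 10 raised by the double loss) had medians of 0.42, -0.21 and 0.71. Of 29 kept genes of MYC and ribosome biogenesis the double loss raised 12, with medians of -0.01, 0.01 and 0.42, and 1 interaction (3.45%) was called above 0, that of Mybbp1a, a nucleolar MYB-binding protein (0.88, SE 0.15, limma adjusted p = 0.0126; 0.90 and not called without wt+/mt- replicates 1 and 2). The median interaction was 0.30, 0.56 and 0.43 for these lists, and stayed above 0 under all 3 other scalings. For the G2/M list it fell to 0.04 with the actin covariate and to -0.15 without wt+/mt- replicates 1 and 2, and for the S phase list to 0.24 and 0.02, while the MYC list kept 0.29 and 0.31. Ccnd2 and Ccnd3, the cyclins of germinal center B cells, did not pass (1.72, adjusted p = 0.643, and -0.08, adjusted p = 0.895). Ccnd2 read 12.23 in wt-/mt- replicate 2 against 6.01 and 6.89 in the other two.

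The called interactions were not spread evenly over chromosomes. Chromosome 1 held 44 below 0 and 0 above 0 (6.81% of its 646 genes, against 3.14% over all), with a median of -0.25. Chromosome 12 held 15 below 0 and 0 above 0 (3.61% of its 416 genes), with a median of -0.33. Chromosome 11 held 15 below and 20 above 0 (3.59% of its 975 genes). The shares of chromosomes 12 and 11 were thus near that of all genes, and only the directions of their calls differed. In wt-/mt- replicate 1 the median over the genes of chromosome 12 was -0.66 and that of chromosome 1 -0.31 relative to wt+/mt+. Replicates 2 and 3 stood at 0.33 and 0.22 on chromosome 6, and replicate 3 at 0.34 on chromosome 16 and -0.27 on chromosome 8. The 9 arrays with an allele stayed between -0.04 and 0.09 on chromosome 1. With each array centred on the median of each chromosome, 370 interactions were called, 271 of them shared with the 360, and the share below 0 went from 73.3% to 61.1%. Among the genes named here, Lct, Mndal, Cxcr4, Atp6v1h and Rgs2 lie on chromosome 1; after this centring Rgs2, Foxo1 and Vav3 (chromosome 3) and Cdyl2 (chromosome 8) were no longer called.

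**Figure D4:**
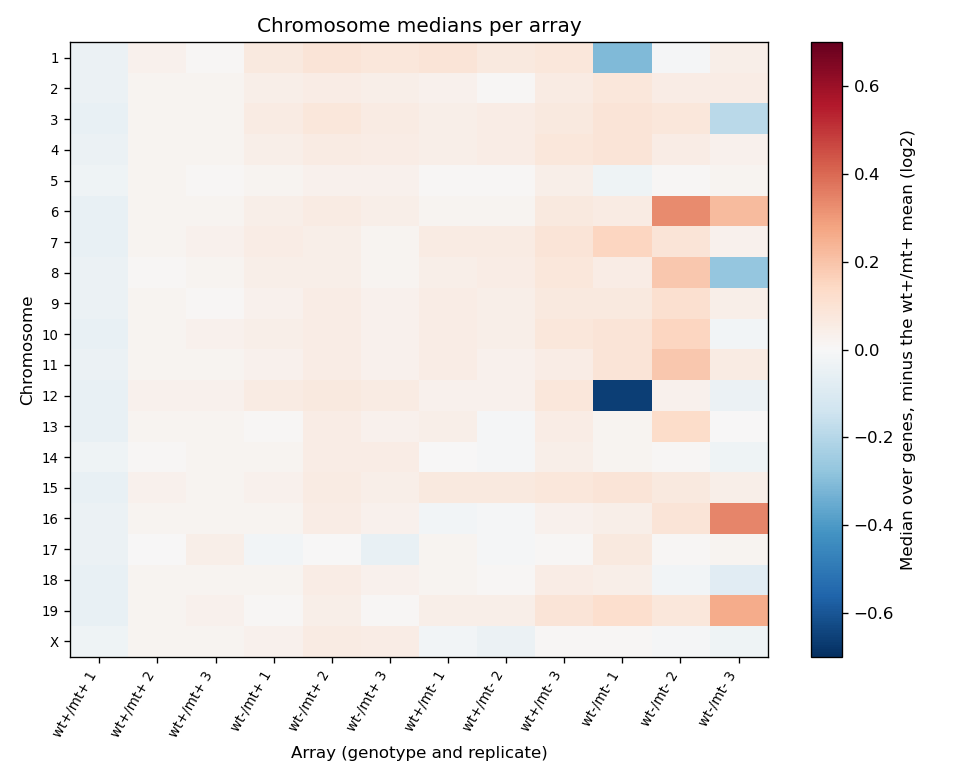
Median over the kept genes of each chromosome (rows) in each array (columns), relative to the wt+/mt+ mean (log2, colour scale). The 3 wt-/mt- arrays depart on several chromosomes, with chromosome 12 at -0.66 in replicate 1 and chromosome 6 at 0.33 and 0.22 in replicates 2 and 3, while the other 9 arrays stay near 0.

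The same genes were compared across all alternatives. Scaling gave 402 calls after quantile normalization and 303 after median centring, of which 351 and 299 were shared with the 360. Giving each genotype its own weight (2.18, 1.68, 1.08 and 0.253 for wt+/mt+, wt-/mt+, wt+/mt- and wt-/mt-) also called 360, of which 268 were shared. The classes held less well than this count: with these weights 137 of the 240 sustained and 31 of the 79 restrained genes stayed in their class. On a linear scale 306 were called and 260 shared.

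**Figure D5:**
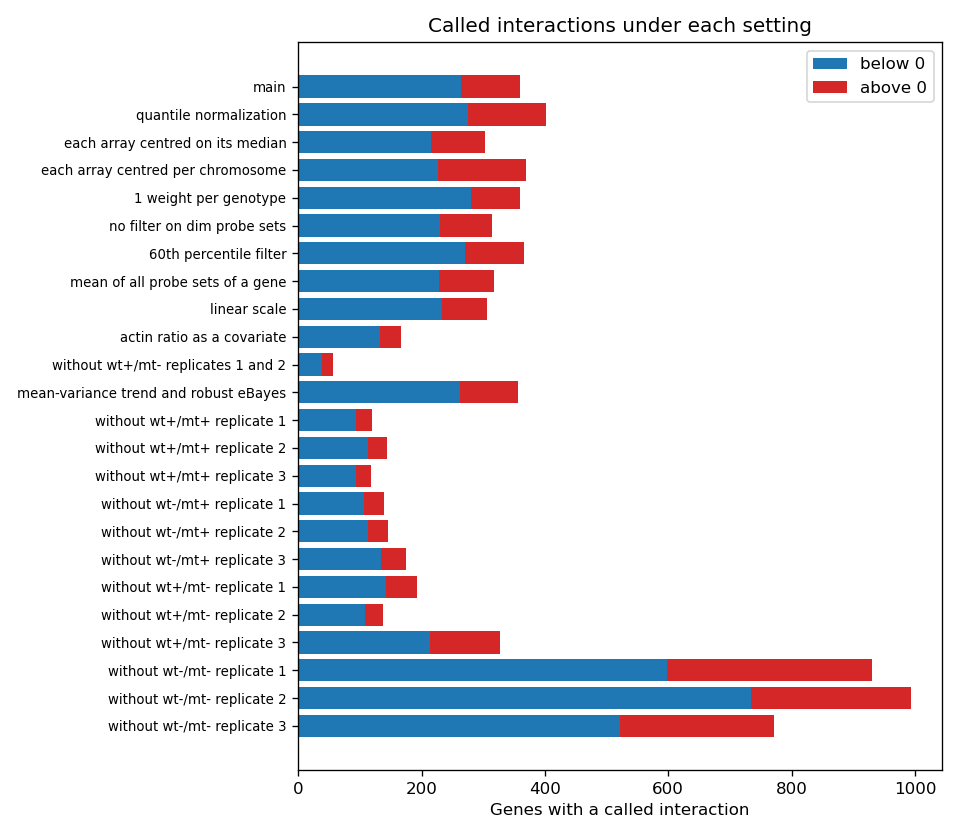
Number of genes with a called interaction below 0 (blue) and above 0 (red) in the full fit and under each of the 23 alternatives. Counts run from 56 without wt+/mt- replicates 1 and 2 to 994 without wt-/mt- replicate 2, and calls below 0 outnumber those above 0 in each setting.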

How the data were processed

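RNA of the 12 samples was hybridised to Affymetrix arrays after 3' IVT labelling, per the labels' protocols. The deposited values are on the log2 scale, 1 per probe set, and the submitters' processing notes name RMA; the base was taken from the usual RMA output and the range of 3.09 to 15.57. RMA equalises arrays, so a shift common to most genes is lost. No counts exist, and the number of arrays limits the precision.

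Probe sets (45101) were named through the platform annotation with symbols checked against RefSeq: 34958 had 1 gene, 932 several and 9211 none. The brightest probe set stood for a gene, kept where it exceeded the array median in at least 3 arrays (11458 of 18194 genes). limma 3.58.1 in R 4.3.3 fitted 1 mean per genotype over all 12 arrays, after checks on simulated data, with Benjamini-Hochberg adjustment and a threshold of 0.05. Genes named were Foxo1, the 12 genes with the lowest and the 12 with the highest called interaction, up to 3 called members of each list, the up to 6 largest rises and 6 largest falls of each single loss, and a panel of Foxo1-related genes; other genes were named after their values were seen. Members and lists were chosen with earlier results of these data known. Alternatives covered scaling, weights, filters, probe sets, a linear scale, the actin ratio and leaving out arrays.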

Additional observations from a re-analysis of the deposited data

Results flagged for a closer look

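The change after loss of the mutant allele differed with the state of the wild-type allele for 360 genes, which is the called interaction itself (limma, Benjamini-Hochberg adjusted p under 0.05). Vpreb3 was the 1 gene in which the mutant loss was called in opposite directions, lower with the wild-type allele present and higher without it, with a difference between both changes of 2.24. The Vpreb3 call of the mutant loss with the wild-type allele present ended in 13 of 23 alternatives.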

How the results depend on the processing

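No paired analysis was possible because the sample numbers run from 1 to 12 and none is shared between genotypes. Leaving out 1 array at a time gave 118 to 994 called interactions (93 to 734 below 0, 25 to 332 above 0), 84 to 604 sustained and 22 to 286 restrained genes, 43 to 208 and 6 to 81 in the strict form, 0 to 1 wild-type-loss calls, 0 to 151 mutant-loss calls and 0 to 43 interaction calls that differed between the single-allele genotypes. With the actin ratio as a covariate the interaction calls were 166 (132 below 0, 34 above 0), with 118 sustained and 29 restrained genes, 59 and 11 in the strict form, and without wt+/mt- replicates 1 and 2 they were 56 (39 and 17), with 36, 13, 16 and 6. Mutant-loss calls, 21 in the full fit, were 9 after quantile normalization, 10 after median centring, 7 after centring per chromosome, 950 with 1 weight per genotype, 100 without a filter, 0 with the mean of all probe sets, 45 on a linear scale, 0 with the actin covariate, 2 without wt+/mt- replicates 1 and 2, 33 with a mean-variance trend and 962 without the wt-/mt- arrays. Wild-type-loss calls, 0 in the full fit, were 1 after median centring, 19 with weights, 3 on a linear scale and 6 without the wt-/mt- arrays. Interaction calls that differed between the single-allele genotypes, 5 in the full fit, were 3 after median centring and 3 per chromosome, 55 with weights, 1 with mean probe sets, 22 on a linear scale, 0 with the actin covariate and 1 without wt+/mt- replicates 1 and 2. Weights gave 42 restrained genes, and a linear scale 19 strictly sustained and 8 strictly restrained. Intervals inside 0.6 left 37 and 10 strict genes, and no minimum for the double loss gave 201 and 69. Fewer arrays leave fewer degrees of freedom; the cause of the other shifts was not tested. The sign of the interaction turned only for genes without a call: Neo1 (-0.12 to 0.38 leaving out 1 array), Ugcg (0.00029 on a linear scale), Ckm (-0.23 to 0.065 leaving out 1 array), 1700003E16Rik (-0.17 to 0.035 leaving out 1 array, 0.050 without wt+/mt- replicates 1 and 2), Smox (0.036) and Foxo4 (-0.016) without wt+/mt- replicates 1 and 2, Irf4 (-0.089 with mean probe sets, -0.25 to 0.68 leaving out 1 array), Ccnd2 (-0.21 to 2.90) and Ccnd3 (-0.28 to 0.070) leaving out 1 array. Dim probe sets carry little signal over background, so falls to the floor are smallest sizes.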

Other observations

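Of 3460 bright probe sets without a single gene name, 67 had a called interaction in a limma fit of all 45101 probe sets, 53 below 0 and 14 above 0, among 481 called in that fit.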
